A study of Mus musculus with 6 samples.

Results

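Nascent transcription of 4 mast cell and basophil effector genes, Cpa3, Tpsb2, Fcer1a and Il1rl1, was described from PRO-seq counts of cultured mouse bone marrow progenitors. The members were all transcript rows carrying one of these symbols in the deposited table, and each gene had 1 row, so that 4 of 3022 rows and 4 of 2744 genes were taken. PRO-seq lets engaged RNA polymerases extend their RNA with biotin-labelled nucleotides in isolated nuclei, so that only RNA under synthesis is pulled down and read. The cells were bone marrow cells labelled cKIT+ from female C57/BL6 mice of the genotype Mllt3 flox/flox Rosa26Cre+. They were transduced with MLLT3 WT (3 libraries, called WT) or with MLLT3 K63E K67E (3 libraries, called DM), sorted, and grown in methylcellulose for 8 days. Both groups received 200 nM 4-hydroxytamoxifen, which activates the recombinase and deletes endogenous Mllt3, so the control also lacks the endogenous gene by design and carries added MLLT3. Rosa26 is a broadly active locus, and how complete the deletion was is not given in the sources used here. Both received 10 ng/mL mFlt3L, 20 ng/mL each of mSCF, mIL-3, mIL-6, mIL-11, mGMCSF, hEPO and hTPO, and gentamycin. The labels do not give the age of the mice, and nothing in them says that the replicates came from separate mice or cultures, so p-values measure only the spread between these libraries, which may be technical. All 6 libraries are labelled batch 1.

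Mast cells and basophils are granule-bearing immune cells that bind IgE through the high-affinity receptor FcεRI and release stored proteases, histamine and cytokines when antigen crosslinks it. Their granules hold carboxypeptidase A3 (Cpa3) and, in mast cells, tryptases such as tryptase beta 2 (Tpsb2), bound to serglycin proteoglycan. Fcer1a encodes the IgE-binding alpha chain of FcεRI, and Il1rl1 encodes ST2, the receptor for the alarmin IL-33, which signals together with the shared subunit encoded by Il1rap. Mast cell and basophil precursors arise from KIT-bearing progenitors, and the factors GATA1 and GATA2, which bind GATA sequences in DNA, are known regulators of these genes.

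The windows in which reads were counted are set by the transcript rows, given here on build mm10 with 1-based positions. The Cpa3 row (ENSMUSG00000001865.2) spans chr3:20215620-20240747 on the minus strand, and the Tpsb2 row (ENSMUSG00000033825.10) spans chr17:25366305-25369098 on the plus strand. The Fcer1a row (ENSMUSG00000005339.10) spans chr1:173221284-173227214 on the minus strand, and the Il1rl1 row (ENSMUSG00000026069.15) spans chr1:40429570-40465415 on the plus strand. The head window of each row is 330 bp long and begins 30 bp upstream of the row's 5′ end. The body is the rest of the transcript, introns included, and is 24826 bp long for Cpa3, 2492 bp for Tpsb2, 5629 bp for Fcer1a and 35544 bp for Il1rl1. Both windows therefore count polymerase over exons and introns alike, and neither measures mature mRNA.

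Promoter sequence from RefSeq (GRCm38.p6) was matched for 3 of the 4 genes and is shown because the position of the start decides what a head window holds. Each line gives the 250 bases that end just before the start site, 5′ to 3′ on the gene's strand. Capitals mark every match, on either strand, to 4 GATA words, namely the word AGATAA, the variant AGATAG, the word TGATAA and the variant TGATAG. They also mark every match on the gene's strand to TATAAA. No GATA match shares a base with a TATAAA match in these windows.
Il1rl1, chr1:40429320-40429569: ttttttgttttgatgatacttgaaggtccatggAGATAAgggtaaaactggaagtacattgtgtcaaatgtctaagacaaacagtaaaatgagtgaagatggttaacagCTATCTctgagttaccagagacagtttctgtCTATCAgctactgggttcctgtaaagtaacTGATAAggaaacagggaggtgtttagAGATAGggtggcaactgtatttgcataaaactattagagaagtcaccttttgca
Fcer1a, chr1:173227230-173227479: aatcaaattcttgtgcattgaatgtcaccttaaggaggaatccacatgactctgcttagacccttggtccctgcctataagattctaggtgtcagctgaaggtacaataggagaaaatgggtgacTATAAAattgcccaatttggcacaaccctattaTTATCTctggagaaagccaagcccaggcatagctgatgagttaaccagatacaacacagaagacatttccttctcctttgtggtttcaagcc
Cpa3, chr3:20242182-20242431: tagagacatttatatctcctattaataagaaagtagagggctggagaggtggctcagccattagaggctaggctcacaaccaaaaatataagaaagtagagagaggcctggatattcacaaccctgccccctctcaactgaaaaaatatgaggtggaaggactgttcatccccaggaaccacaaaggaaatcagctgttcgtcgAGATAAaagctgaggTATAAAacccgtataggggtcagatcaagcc
The Il1rl1 window holds 5 GATA words, with first bases at -217, -141, -110, -80 and -54 from the start. Fcer1a holds 1 at -92 and Cpa3 holds 1 at -46. TATAAA begins at -31 in Cpa3 and at -125 in Fcer1a. Over all 32851 RefSeq promoter windows of this length, 26.5% hold at least 1 GATA word, 6.40% hold at least 2 and 0.0426% hold at least 5, while 7.59% hold TATAAA. A match is a description of the letters and shows no binding.

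The start sites differ in how they relate to the deposited rows. The Il1rl1 row begins exactly at the RefSeq start whose promoter is shown, although the RefSeq gene begins further upstream, at position 40404864, so that its head window lies inside the RefSeq gene. Polymerases that began upstream of the row would pass through that window. The Fcer1a row begins 15 bp downstream of its start. The Cpa3 row begins 1434 bp downstream of the RefSeq start, so its head window also lies inside the RefSeq gene and does not cover that start. The RefSeq promoter table also holds an Il1rl1 start at position 40439629, 10059 bp inside the row, with 1 GATA word at -103 in its own window, and polymerases that began there count as body. The Tpsb2 row runs 1002 bp beyond the RefSeq end of the gene. RefSeq also lists Tpsab1, a close tryptase relative, as a transcribed pseudogene on the same chromosome. How reads that match both tryptases were assigned is not given in the sources used here, so the Tpsb2 counts are uncertain to that extent.

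Library totals ran from 15112853 reads in WT replicate 2 to 22981603 in WT replicate 1. Of the 3022 rows, 100% carry an adjusted p under 0.05 for the body comparison in the authors' deposited table, where the largest is 0.0498. The body comparison of the 4 genes is therefore a description of rows already selected on it, and the head comparison is only partly separate from that selection. Mllt3, the targeted gene, had 84.4 ± 9.62 body reads per 1000000 library reads (RPM) with WT and 60.1 ± 2.50 with DM (SD, n = 3 each), and the part of them read from the added cDNA is unknown. Kit, which defines the labelled cells, had a body level of 1266 ± 259 RPM with WT and 657 ± 8.53 with DM (SD, n = 3 each).

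All 4 genes carried less polymerase over their bodies in DM than in WT, and no DM library reached the lowest WT library for any of them. Together the 4 bodies took 0.145% to 0.259% of the library total in WT and 0.111% to 0.118% in DM. In bulk samples, fewer cells of a type and less RNA per cell cannot be told apart, here or below. The separation was narrow for Cpa3 and Fcer1a and wider for Tpsb2 and Il1rl1, and the 3 WT libraries differed from each other far more than the 3 DM libraries did.

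Cpa3, the granule carboxypeptidase, had body counts of 17133, 7814 and 23775 in WT replicates 1 to 3, and the DM replicates in that order had 10991, 10284 and 9369. Relative to the library totals the WT libraries held 746, 517 and 1039 RPM and the DM libraries 481, 509 and 469, or 767 ± 262 against 486 ± 20.4 (SD, n = 3 each). WT replicate 3 was highest, and WT replicate 2 lay just above the highest DM library. Tpsb2, the tryptase, had body counts of 4944, 3903 and 8886 in the WT libraries, beside 3410, 3349 and 3486 in the DM libraries. The WT values came to 215, 258 and 388 RPM and the DM values to 149, 166 and 174, or 287 ± 90.2 against 163 ± 12.8 (SD, n = 3 each). WT replicate 3 was again highest, but here the lowest WT library was replicate 1, and the groups stood clearly apart.

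Fcer1a, the IgE-binding chain, had body counts of 1527, 871 and 2945 in the WT libraries, beside 1218, 1125 and 1054 in the DM libraries. The WT values came to 66.4, 57.6 and 129 RPM and the DM values to 53.3, 55.6 and 52.7, or 84.3 ± 38.8 against 53.9 ± 1.53 (SD, n = 3 each). WT replicates 1 and 2 lay close to the DM libraries, and most of the distance between the group means came from WT replicate 3. Il1rl1, the IL-33 receptor, had body counts of 17352, 9273 and 23695 in the WT libraries, beside 9680, 9176 and 8415 in the DM libraries. The WT values came to 755, 614 and 1036 RPM and the DM values to 424, 454 and 421, or 801 ± 215 against 433 ± 18.2 (SD, n = 3 each). Each WT library of Il1rl1 stood well above each DM library.

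**Figure D1:**
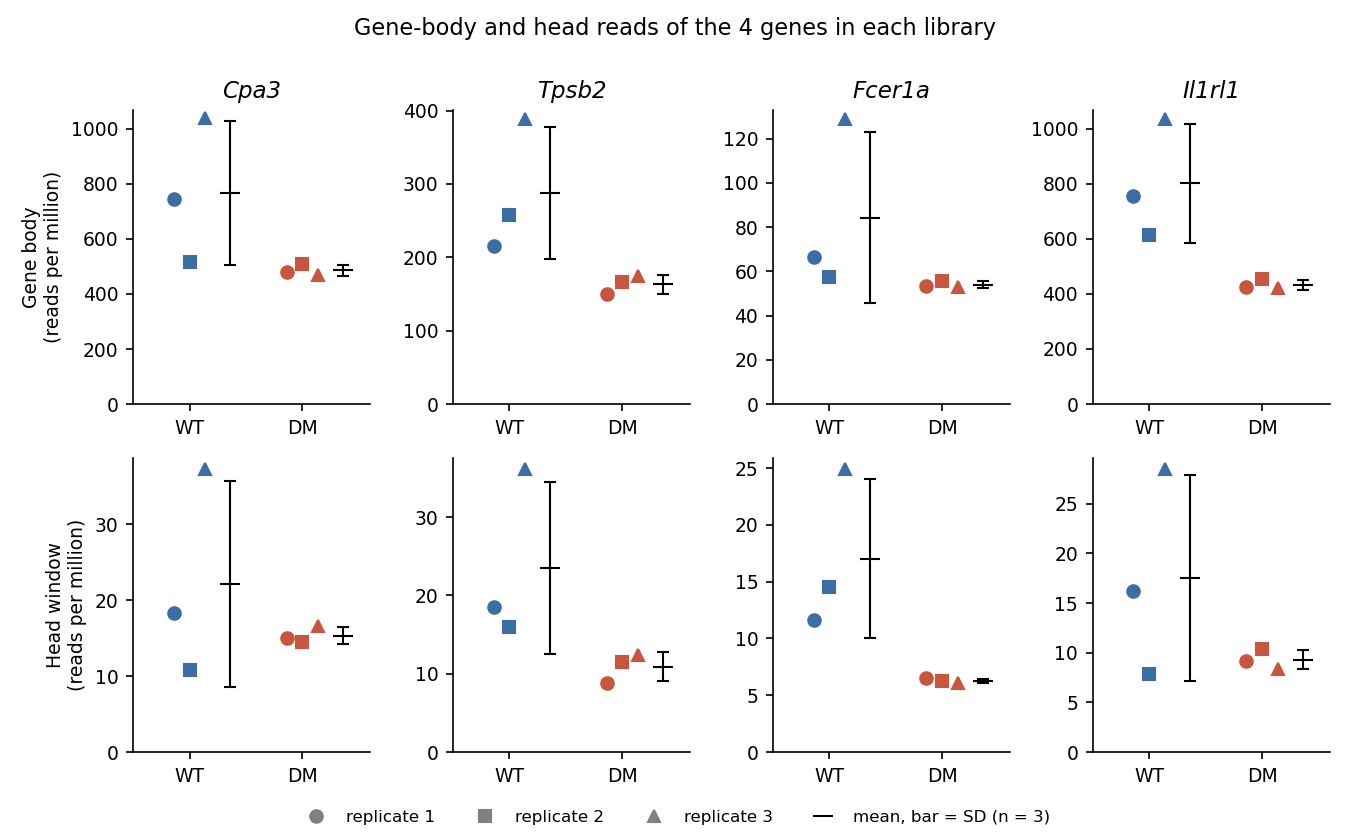
Reads per 1000000 library reads (RPM) in the gene body (top) and the head window (bottom) of each gene, by library; symbols give the replicate number and bars the mean with its SD (n = 3). WT replicate 3 is the highest library in all 8 panels, the body panels do not overlap between groups, and the head panels of Cpa3 and Il1rl1 do.

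Body fold changes were estimated by edgeR over all 2721 genes tested, on a scale set by TMM. TMM gives a factor per library, computed as if most genes did not differ between libraries. Every row was selected on this comparison, so that premise may not hold here. Il1rl1 had the largest difference, at -1.17 (SE 0.152, edgeR adjusted p 5.43e-04), where the value is log2 of DM over WT. Tpsb2 followed at -1.10 (SE 0.182, edgeR adjusted p 0.00129). Cpa3 had -0.94 (SE 0.199, edgeR adjusted p 0.00372) and Fcer1a -0.92 (SE 0.251, edgeR adjusted p 0.0113). All 4 were thus lower past the threshold of an adjusted p of 0.05, in a table in which 77.1% of genes passed it, 42.5% lower and 34.7% higher (1156 and 943 genes), and the median gene stood at 0.11. No overlap between the groups with DM below was found for 38.3% of genes. Each interval of 1 SE either way overlapped that of at least one of the other 3 genes, and no difference between the genes was tested.

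The scales that were tried changed the size of the 4 body differences and not their direction. With deposited library totals in place of TMM the median of all genes rose to 0.40, and 1562 genes were higher and 1145 lower. On that scale the 4 body log2 fold changes were -0.66 for Cpa3, -0.82 for Tpsb2, -0.65 for Fcer1a and -0.89 for Il1rl1, all still past the threshold. In the authors' deposited table they were -0.67, -0.84, -0.66 and -0.91 in the same order, with adjusted p from 1.40e-07 for Il1rl1 to 0.0377 for Fcer1a. Leaving out WT replicate 3 also brought all 4 values closer to 0 on the TMM scale, and moved Fcer1a most: they became -0.62 for Cpa3, -0.79 for Tpsb2, -0.45 for Fcer1a and -0.91 for Il1rl1, and all 4 still passed in edgeR.

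**Figure D2:**
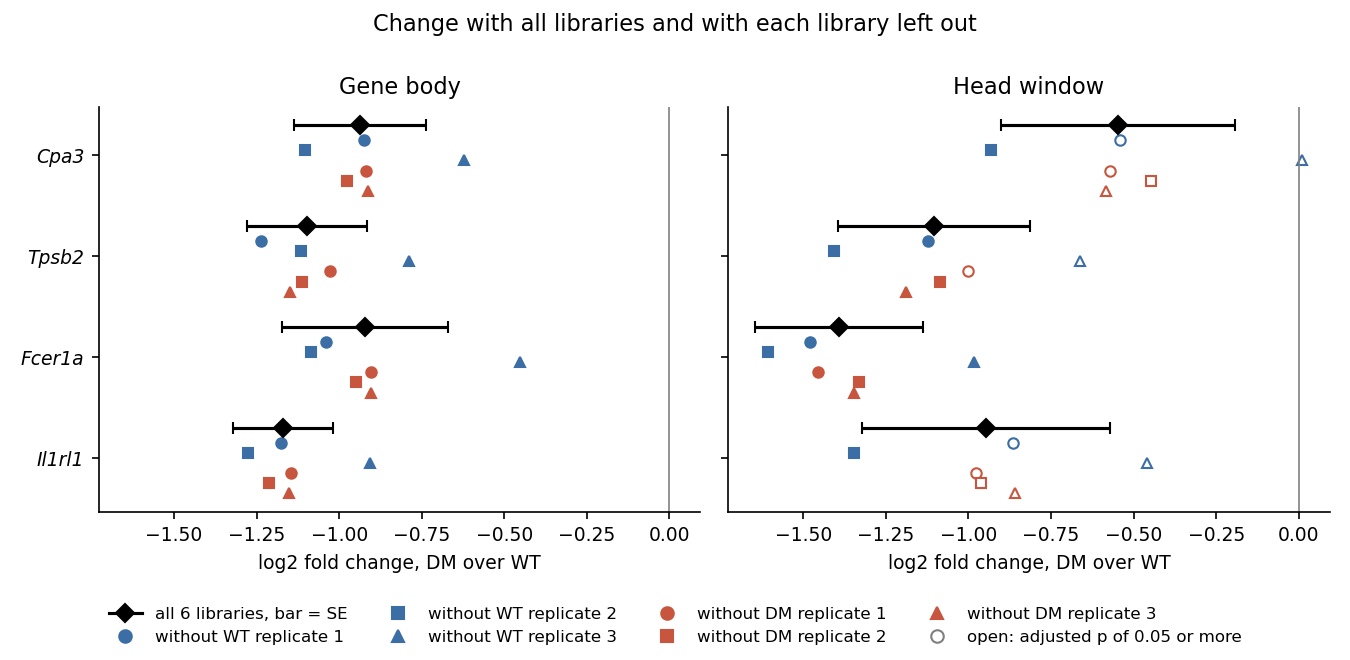
edgeR log2 fold change of DM over WT for the gene body (left) and the head window (right) with all 6 libraries (diamonds, bars are SE) and with each library left out; open symbols have an adjusted p of 0.05 or more. All body symbols are filled and below 0, while removing WT replicate 3 moves every gene toward 0 and takes the Cpa3 head to 0.01.

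The spread among WT libraries was a marked feature of these genes. WT replicate 3 exceeded WT replicate 2 in body RPM by 2.01-fold for Cpa3, 2.23-fold for Fcer1a, 1.69-fold for Il1rl1 and 1.50-fold for Tpsb2, where the median over all 2721 genes was 1.09-fold. These ratios lay at percentiles 99.0, 99.5, 96.8 and 92.9 of all genes. The coefficient of variation of body RPM over the 3 WT libraries was 34.1% for Cpa3, 46.0% for Fcer1a, 26.8% for Il1rl1 and 31.4% for Tpsb2, against a median of 14.7% over all genes. Over the DM libraries it was 4.19%, 2.85%, 4.20% and 7.83%, against a median of 6.04%. All 4 genes thus stood high in the WT spread and near the middle or low in the DM spread. WT replicate 3 was the highest WT library for 48.9% of all genes.

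Head windows hold polymerases near the row's 5′ end, which in many genes pause there before moving into the body. In DM, head RPM was lower for Tpsb2 and Fcer1a without overlap between the groups, whereas for Cpa3 and Il1rl1 the groups overlapped. Of the 4 heads, 2 were lower past the threshold, in a table in which 38.2% of 2579 genes passed it, 19.3% were lower past it and 23.4% had all DM libraries below all WT libraries. The median head log2 fold change of all genes was -0.03.

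Cpa3 had head counts of 422, 164 and 852 in the WT libraries, beside 342, 292 and 332 in the DM libraries. Its head change was -0.55 (SE 0.355, edgeR adjusted p 0.237), with WT replicate 2 below every DM library in RPM and WT replicate 3 far above them. Without WT replicate 3 it was 0.01 (edgeR adjusted p 0.981), and without WT replicate 2 it was -0.93 (edgeR adjusted p 0.00157). Because the Cpa3 head lies inside the RefSeq gene, this window does not measure polymerase at the start printed above. Tpsb2 had head counts of 425, 241 and 827 in the WT libraries, beside 201, 233 and 249 in the DM libraries. In RPM the lowest WT library held 15.9 and the highest DM library 12.5, so the groups did not overlap. Its head change was -1.10 (SE 0.291, edgeR adjusted p 0.0101), but it lost the call without WT replicate 3 (-0.66, edgeR adjusted p 0.0749) and without DM replicate 1 (-1.002, edgeR adjusted p 0.0701).

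Fcer1a had head counts of 268, 219 and 570 in the WT libraries, beside 148, 127 and 122 in the DM libraries. All 3 WT libraries stood well above the DM libraries, at 11.7, 14.5 and 24.9 RPM against 6.48, 6.28 and 6.11. Its head change was -1.39 (SE 0.254, edgeR adjusted p 0.00163), the largest head difference of the 4 genes, and it passed the threshold without any single library, at -0.98 without WT replicate 3 (edgeR adjusted p 0.00625). Il1rl1 had head counts of 372, 119 and 652 in the WT libraries, beside 210, 209 and 168 in the DM libraries. WT replicate 2, at 7.87 RPM, was below all 3 DM libraries, which held 8.41 to 10.3 RPM. Its head change of -0.95 missed the threshold (SE 0.376, edgeR adjusted p 0.0605), passed it without WT replicate 2 (-1.35, edgeR adjusted p 1.48e-04) and was -0.46 without WT replicate 3 (edgeR adjusted p 0.381).

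The reads per base in the head relative to the body give a measure that does not depend on library depth. All 4 genes had low ratios of head to body RPKM (reads per kilobase per 1000000 library reads) in every library. The Cpa3 head does not cover the RefSeq start, and the Il1rl1 head also lies inside the RefSeq gene. The Tpsb2 row runs 1002 bp beyond the RefSeq end. How far the placement of these windows set the ratios was not tested. For Cpa3 the ratio was 1.85, 1.58 and 2.70 in WT replicates 1 to 3, beside 2.34, 2.14 and 2.67 in the DM replicates. For Tpsb2 it was 0.649, 0.466 and 0.703 in WT and 0.445, 0.525 and 0.539 in DM, so that reads were denser in the body than in the head in all 6 libraries. For Il1rl1 it was 2.31, 1.38 and 2.96 in WT and 2.34, 2.45 and 2.15 in DM.

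Of the 4, only Fcer1a had a ratio without overlap between the groups, at 2.99, 4.29 and 3.30 in WT and 2.07, 1.93 and 1.97 in DM. The share of all genes whose ratio separates the groups in this way was not counted. The median over all genes was 19.3 in WT and 15.6 in DM, taking each gene's mean over its 3 libraries. By that mean, Tpsb2 had the 23rd lowest ratio of 2744 genes in WT and was 1 of 37 genes below 1. Cpa3 was 130th lowest, Il1rl1 147th and Fcer1a 268th. In the test of the ratio between the groups, none of the 4 passed the threshold. The log2 change of the ratio was -0.81 for Fcer1a (SE 0.255, edgeR adjusted p 0.219), -0.26 for Tpsb2 (SE 0.257, edgeR adjusted p 0.624), 0.24 for Cpa3 (SE 0.264, edgeR adjusted p 0.651) and 0.11 for Il1rl1 (SE 0.292, edgeR adjusted p 0.877). Only 0.0776% of 2577 genes passed in this test, and the median gene stood at -0.26. At an unadjusted p of 0.05, 395 genes passed, 349 of them lower in DM, and Fcer1a was among these (edgeR p 0.00744). The table's median ratio was itself highest in WT replicate 2, at 24.8 against 14.4 to 17.6 in the other 5 libraries, and its part in these values was not tested.

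**Figure D3:**
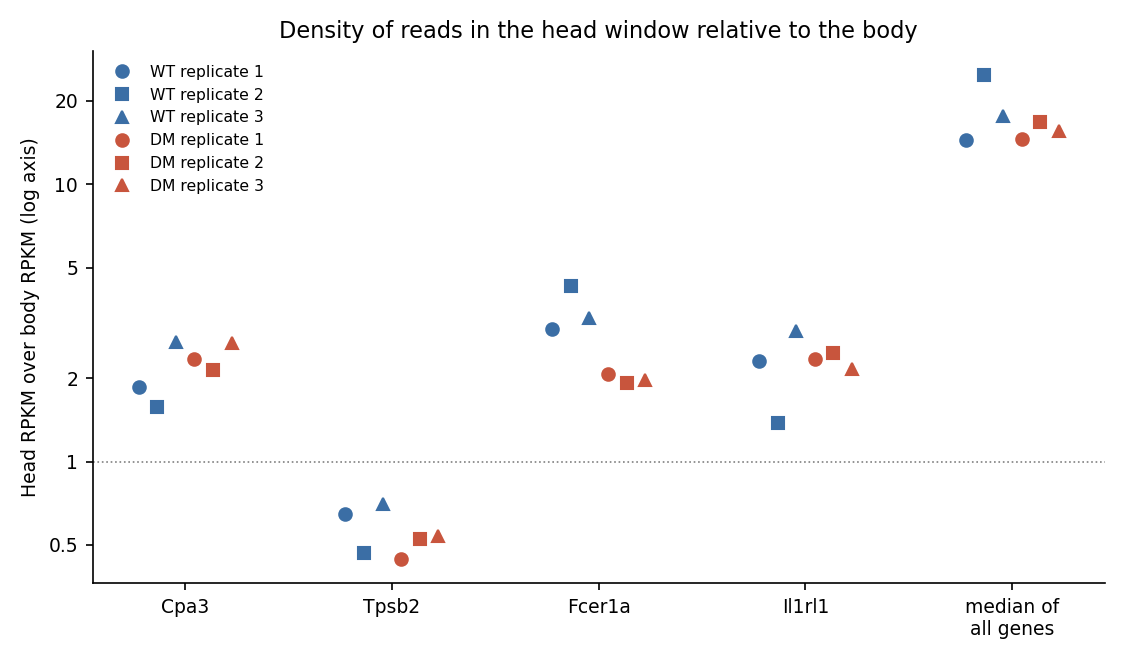
Head RPKM over body RPKM in each library (log axis; the dotted line marks equal density) for the 4 genes and for the median of all 2744 genes in that library. Tpsb2 lies below 1 in all 6 libraries, and all 4 genes lie far below the median gene. Of the 4, only Fcer1a has all WT symbols above all DM symbols, and the share of all genes that do so was not counted.

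Levels per base differed among the 4 genes in a fixed order. Body RPKM was highest for Tpsb2, at 115 ± 36.2 in WT against 65.5 ± 5.13 in DM (SD, n = 3 each). Cpa3 followed at 30.9 ± 10.5 and 19.6 ± 0.821. Il1rl1 held 22.5 ± 6.04 and 12.2 ± 0.512, and Fcer1a 15.0 ± 6.88 and 9.58 ± 0.273 (SD, n = 3 each). The order Tpsb2, Cpa3, Il1rl1, Fcer1a held within each of the 6 libraries, although across WT libraries the ranges of neighbouring genes below Tpsb2 overlapped. Among the 2744 genes, Tpsb2 ranked 2nd in WT and 12th in DM by mean body RPKM. Cpa3 ranked 27th and 50th, Il1rl1 47th and 98th, and Fcer1a 70th and 138th, in the same order of groups. These genes were among the most densely transcribed of the table in both groups.

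Other genes of mast cell and basophil biology were counted in 7 lists, which name 156 genes besides the 4, of which the table holds 75. Like the 4, these are rows already selected on the body comparison. List genes that did not pass it are missing from the counts below. Of these 75, 42 were lower and 20 higher in DM past the threshold in their bodies, with a median log2 fold change of -0.72 against 0.11 over all genes. The share of all genes lower was 42.5% and that of genes higher was 34.7%. The count of lower genes was 42 again when any one library was left out, and that of higher genes ran from 16 to 24. With library totals 41 of the 75 were lower and 33 higher, with a median of -0.44 against 0.40 over all genes.

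The granule list was mostly lower: besides Cpa3 and Tpsb2, 7 of 9 genes tested were lower and 1, the lysosomal membrane gene Lamp1, was higher at 0.35. Srgn, the serglycin core protein, had a body log2 fold change of -1.16 (edgeR adjusted p 0.00558), Ndst2, which sulfates heparin, had -1.22, and the transmembrane tryptase gene Tpsg1 had -0.99. Ctsd, a lysosomal protease found in most cells, had 0.17 and did not pass (edgeR adjusted p 0.215). In the list of lipid mediator and amine synthesis, 5 of 6 genes were lower and none higher. It held Tph1, which makes serotonin's precursor, at -1.30, the vesicular amine transporter Slc18a2 at -1.17 and the leukotriene enzyme Alox5 at -0.92, while Ptgs1, the cyclooxygenase 1 gene, had 0.40 and did not pass (edgeR adjusted p 0.102).

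Of the 13 receptor genes tested besides Fcer1a and Il1rl1, 8 were lower, and Il1rap, Cd33 and the complement receptor gene C5ar1 were higher. Kit, the stem cell factor receptor, had -1.23, Il18r1, an interleukin 18 receptor chain, -1.24, Cd200r3 -0.996 and Csf2rb2, a beta chain for interleukin 3, -0.81. The FcεRI signalling list was divided: 7 of 17 were lower and 5 higher, with a median of 0.11. The count of higher genes was 2 without DM replicate 1 or DM replicate 3 and 8 without WT replicate 3, and with library totals 6 were lower and 10 higher. The receptor-proximal kinases Lyn and Syk were higher, at 0.27 and 0.50, as were Plcg2, Grap and Cbl, whereas the adaptor Lat2 was lower at -0.91 and the kinase gene Prkcb at -0.72. The IL-33 pathway list without Il1rl1 had 1 of 7 lower and 5 higher, with a median of 0.42, the lower gene being Sigirr, an inhibitory receptor of the family, at -1.24. Nfkbia, the NF-κB inhibitor, had 1.02, the kinase genes Irak2 and Irak3 0.42 and 0.48, and Traf6 0.23. Il1rap, the subunit with which ST2 signals, was higher at 0.70, so the genes of both receptor chains had body differences of opposite sign.

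Of 15 transcription factor genes, 10 were lower and 3 higher, with a median of -0.97. Gata2 had -1.15, Tal1 -0.98, the Helios gene Ikzf2 -0.97 and Runx1 -0.57, while Runx2, Tfec and Irf8 were higher at 0.44, 1.05 and 1.08. Of 9 cytokine genes, 4 were lower and 4 higher. The type 2 cytokine genes Il4 and Il13 had -1.45 and -1.20, Lif had -1.55 and Il6 -0.87, whereas Ccl3, Ccl9, Ccl4 and Tnf were higher at 1.24, 1.06, 0.79 and 0.52. The body signs of the list genes that passed did not change with library totals or with DESeq2. The other FcεRI chains, Ms4a2 and Fcer1g, and the basophil protease Mcpt8 were not analysed here.

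**Figure D4:**
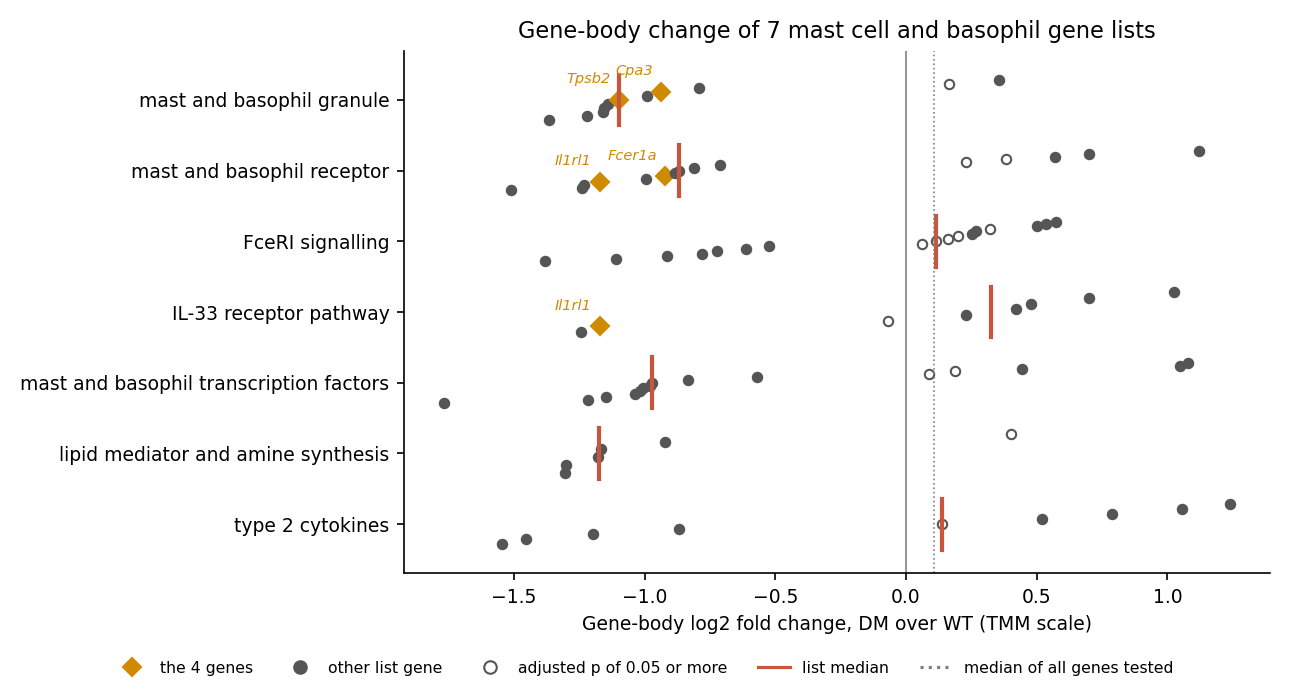
Gene-body log2 fold change, DM over WT, of every tested gene of the 7 lists (points; open where the adjusted p is 0.05 or more), with the 4 genes as diamonds, list medians as red lines and the median of all genes as a dotted line. The granule, receptor, transcription factor and synthesis lists have medians from -1.17 to -0.87, and the medians of the other 3 lists lie between 0.11 and 0.32.

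Heads of these lists moved less. Of 73 list genes tested besides the 4, 27 heads were lower and 11 higher past the threshold, with a median of -0.31 against -0.03 for all genes. The share of all genes was 19.3% lower and 18.9% higher. These counts moved when libraries were left out, from 13 lower and 6 higher without DM replicate 1 to 34 and 14 without WT replicate 2. They were 14 and 7 without DM replicate 3, 17 and 11 without WT replicate 3, and 16 and 6 with library totals.

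Neighbouring rows within 500 kb were held for 3 of the 4 genes, and none was held for Cpa3. The row of Tpsg1 begins after a gap of 174 bp from the end of the Tpsb2 row on the same strand, and its body was lower at -0.99 (edgeR adjusted p 2.16e-04). On the other side, Ccdc154 lies 194391 bp away and was higher at 0.38 (edgeR adjusted p 0.00666). The row of Il18r1 begins after a gap of 136 bp from the end of the Il1rl1 row, also on the same strand, and was lower at -1.24. Il1rl2, 62007 bp before the Il1rl1 row, was higher at 0.83 (edgeR adjusted p 3.99e-04). Cadm3, 106043 bp from Fcer1a, was lower at -1.62. For Tpsb2 and Il1rl1 the gene directly downstream was thus lower too, and the nearest held gene upstream was higher. Polymerase that runs past a gene's end is counted in the next row, and how much of the Tpsg1 and Il18r1 counts this makes up was not tested.

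The genes with body profiles most like each of the 4 were sought over the 6 libraries among 2636 genes, leaving out the 4 themselves, by the root mean square difference of centred log2 values. Cpa3 was closest to Radx (0.054), Ikzf2 (0.074) and Cobl (0.075). Tpsb2 was closest to P2rx7 (0.093), Anpep (0.097) and Pear1 (0.101). Fcer1a was closest to Radx (0.131), Ahrr (0.137) and Rab40b (0.152), and Il1rl1 to Tmtc2 (0.036), Inpp4b (0.055) and Rapgef3 (0.062). Among the 4 genes the difference ran from 0.143 between Cpa3 and Fcer1a to 0.257 between Cpa3 and Tpsb2. Each of the 4 was thus closer to the gene named first for it than to any other of the 4. Of the genes named as closest, only Rab40b was further from its gene, Fcer1a, than another of the 4 was. Tpsb2 differed from the others in having its lowest WT value in replicate 1.

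Marker lists of other cell types also differed between the groups. Over all genes tested, 42.5% of bodies were lower past the threshold and 34.7% were higher. Held markers are rows already selected on the body comparison, so markers that did not pass it could not appear among them. All 6 monocyte and macrophage markers held of 9, Csf1r, Lyz2, Cd68, Adgre1, Itgam and Fcgr1, were higher in DM, with body log2 fold changes from 0.23 for Cd68 to 1.80 for Lyz2. Their summed body level was 221 to 299 RPM in WT and 604 to 670 in DM. Of 3 neutrophil markers held of 11, S100a8 and Csf3r were higher and Ctsg, which mast cells also express, was lower. All 3 erythroid markers held of 12 were lower, from a summed 56.6 to 72.3 RPM in WT to 27.9 to 34.8 in DM. Of 8 stem and progenitor markers, 5 were held and 4 tested, as Hoxa9, with 2 to 33 body reads per library, did not pass the count filter. Kit, Cd34 and Meis1 were lower and Procr was higher, with a median log2 fold change of -1.13. The list's summed level was 1334 to 1987 RPM in WT and 825 to 849 in DM. Most of that sum was Kit, with means of 1266 RPM in WT and 657 in DM. The 1 megakaryocyte marker held, Itga2b, was lower at -1.11. The 1 lymphoid marker held, Il7r, and the 1 dendritic marker held, Irf8, were higher at 1.26 and 1.08. All 8 mast cell markers held of 14, the 4 genes among them, were lower. Their sum was 4164 to 6062 RPM in WT and 2858 to 2968 in DM. Without the 4 genes, 4 markers were held, all lower, at a summed 2717 to 3680 RPM in WT and 1741 to 1846 in DM. Most of this sum was Kit, also on the stem and progenitor list, and Gata2, with means of 1312 RPM in WT and 726 in DM. Of 10 basophil markers 3 were held, Fcer1a, Cpa3 and Cd200r3, all of them lower and also on the mast cell list. None of the 8 eosinophil markers was analysed here. No held marker was at 0 in all libraries. The part of these other cell types in the results for the 4 genes was not tested.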

How the data were processed

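PRO-seq libraries of 3 WT and 3 DM samples, all labelled batch 1, were analysed from 1 table. Run-on lasted 3 min at 30 °C with 25 µM biotin-labelled nucleotides, per the labels' protocols. Raw counts of head and body windows were deposited by the authors for each transcript row. The authors also gave a library total, of unstated origin, and window lengths. RPKM of each window were given by the authors as well. The deposited log2 fold changes and their adjusted p-values come from the authors' body comparison. The submitters' processing notes name cutadapt, Trimmomatic, Bowtie 1.1.2, MACS2 and bedtools 2.28 and the builds mm10 and dm3, with no role given. Whether fly reads entered the library totals or served as a reference for scaling is not stated, and a scaling by such reads could move every fold change and level difference given here. Many 5′ ends of rows coincided with RefSeq starts of GRCm38, so coordinates are given on mm10. Use of strand and of multiply mapped reads is not given in the sources used here.

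One row per gene was used, the one with the highest mean body count, which left out 278 rows. Body counts, head counts and the ratio of head to body were tested with edgeR 4.0.16 quasi-likelihood fits (limma 3.58.1, R 4.3.3). The ratio test was the interaction of region and group, with library as block. Each fit followed filterByExpr, with Benjamini-Hochberg adjustment over all genes. Depth was library totals times TMM factors for bodies and heads, and library totals alone for the ratio. The alternatives included DESeq2 1.42.0, library totals without TMM, other filters, all transcript rows, a replicate block and each library left out. Fits were tested on simulated data. The 4 genes, the lists and the tests were chosen with earlier results of these data known. Named besides the 4 were Mllt3, up to 6 genes per list by mean body count, the nearest held genes within 500 kb and the 3 genes of most alike profile (at least 50 mean body counts); list genes named otherwise were chosen after their values were seen. The number of libraries per group, 3, limits the precision.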

Additional observations from a re-analysis of the deposited data

How the results depend on the processing

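Body log2 fold changes of the 4 genes kept their sign and their side of the threshold under all alternatives run, namely DESeq2, library totals, TMM with the table's own sums as depth, other filters, all transcript rows, the replicate block and each library left out. The table's own sums as depth, and the list counts without 1 library, were chosen after seeing the data. Without 1 library they ran from -1.10 to -0.62 for Cpa3, -1.24 to -0.79 for Tpsb2, -1.08 to -0.45 for Fcer1a and -1.28 to -0.91 for Il1rl1. Head values depended on single libraries. The lowest and highest head values without 1 library were -0.93 and 0.011 for Cpa3, -1.41 and -0.66 for Tpsb2, -1.61 and -0.98 for Fcer1a and -1.35 and -0.46 for Il1rl1. Without 1 library the log2 change of the ratio ran from 0.078 to 0.468 for Cpa3, -0.429 to -0.136 for Tpsb2, -0.911 to -0.662 for Fcer1a (edgeR adjusted p 0.0429 without WT replicate 2) and -0.183 to 0.357 for Il1rl1. With separate TMM factors for head and body, the Tpsb2 ratio change was 0.0027 (edgeR adjusted p 0.999) and that of Fcer1a -0.461 (edgeR adjusted p 0.573); the cause was not tested.

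Correlations over genes between the deviations of same-numbered libraries were not all above 0.1, at -0.066, -0.19 and 0.41 for bodies and 0.057, -0.026 and 0.055 for heads in replicates 1 to 3, so the numbers were not taken as pairs. With the replicate block, the Il1rl1 head was -0.73 (edgeR adjusted p 0.00251), which passed the threshold, the count of head genes past it was 1055 and that of ratio genes 38. The block changed no other call of the 4 genes.

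Counts over all genes moved more. Head genes past the threshold numbered 984, 524 with library totals, and from 489 to 1188 without 1 library. Ratio genes numbered 2, 31 with separate TMM factors, 35 with DESeq2 and from 0 to 82 without 1 library; edgeR called 0 without each of DM replicates 1, 2 and 3, where 152, 254 and 168 passed 0.05 before adjustment. The causes were not tested. The 4 genes had 119 to 852 head reads and 871 to 23775 body reads per library.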
